A study of Mus musculus with 2 samples.

Results

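Inorganic ion and trace metal carriers were followed in crypts of the small intestine, the pockets of the epithelium where its stem cells divide. Members were chosen by gene symbol, as the solute carrier (Slc) families 4, 8, 9, 12, 20, 24, 26, 30, 34 and 39, with the scaffold proteins Slc9a3r1 and Slc9a3r2. The deposited table held 67 such genes among 17216. Of these, 50 averaged 20 or more normalized reads across the pair of libraries and 17 fell short. Another 11 RefSeq symbols of these families, Slc4a4 among them, had no row and were not analysed here.

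Bulk RNA-seq was made from 2 libraries of C57BL/6 crypts, 1 Eed knockout (EedKO) and 1 wild type (WT). The EedKO library came from AhCreEedfl/fl mice and the WT library from AhCre mice, so both carried the Cre transgene. β-naphthoflavone, which switches on the Cre of AhCre mice through its Cyp1a1-derived promoter, was injected 3 times into mice of both genotypes, and crypts were taken 15 days later. Eed belongs to the core of PRC2, the Polycomb complex that methylates histone H3 at silenced genes. The labels do not say how many animals went into a library or which part of Eed is floxed. With 1 library per genotype nothing could be tested between genotypes, and the 95% intervals given after ratios reflect counting error alone.

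Crypt and villus cells move salt, bicarbonate, phosphate and metals with a division of labour among these families. Families 4 and 26 exchange or cotransport bicarbonate, chloride and sulfate, and family 9 exchanges sodium for protons. Family 12 couples chloride to sodium or potassium, families 20 and 34 take up phosphate, and families 8 and 24 exchange sodium for calcium. Family 30 (ZnT) moves zinc or manganese out of the cytosol, and family 39 (ZIP) moves metals into it. At the brush border, Slc9a3 and Slc26a3 working side by side absorb sodium chloride, while Slc12a2 on the basolateral side loads crypt cells with chloride for secretion.

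The EedKO library held 5918162 reads assigned to transcripts and the WT library 6970733, of which the carriers took 0.698% in EedKO and 0.721% in WT. Eed itself had 183 reads in the EedKO library and 588 in the WT library, 3.08-fold lower (2.61 to 3.66). Calls were made by size: a mean of 20 or more and a log2 ratio (EedKO over WT, value + 1) of at least 1 in either direction. Reads are given as counted, ratios after scaling by the authors' size factors, and levels as scaled reads per kilobase of transcript. All 10879 genes past the filter had a median log2 ratio of -0.11 on this scaling. Scaling to library totals would add 0.18 to log2 ratios, or less at low values, because 1 is added to each value. The split of all genes was then 1444 higher and 237 lower, against 1217 higher and 390 lower under the authors' scaling.

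Of the 50 carriers past the filter, 9 were higher and 5 lower in the EedKO library, and 36 were within 2-fold. Among all 10879 genes past the same filter, 11.2% were higher and 3.58% lower. The carriers' median log2 ratio was -0.21, and over all 67 with a row it was 0.05. Of the 9 higher carriers, 6 had a WT value under 20 and so passed the filter only through the EedKO library. The same was true of 46.5% of all higher genes. Of the 5 lower carriers, 2 had an EedKO value under 20 and passed only through the WT library, as did 19.0% of all lower genes. The authors' deposited table gave 1 of the 76 carrier rows an adjusted p under 0.05, that of Slc9a4, against 0.975% of all rows. Nearest the threshold inside were Slc39a5, 2.10-fold lower, and Slc39a13, at 1.02 on the log2 scale, and outside Slc30a10 at -0.86, Slc20a1 at -0.85 and Slc39a6 at 0.80. In bulk libraries, fewer cells of a type and less RNA per cell cannot be told apart.

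**Figure D1:**
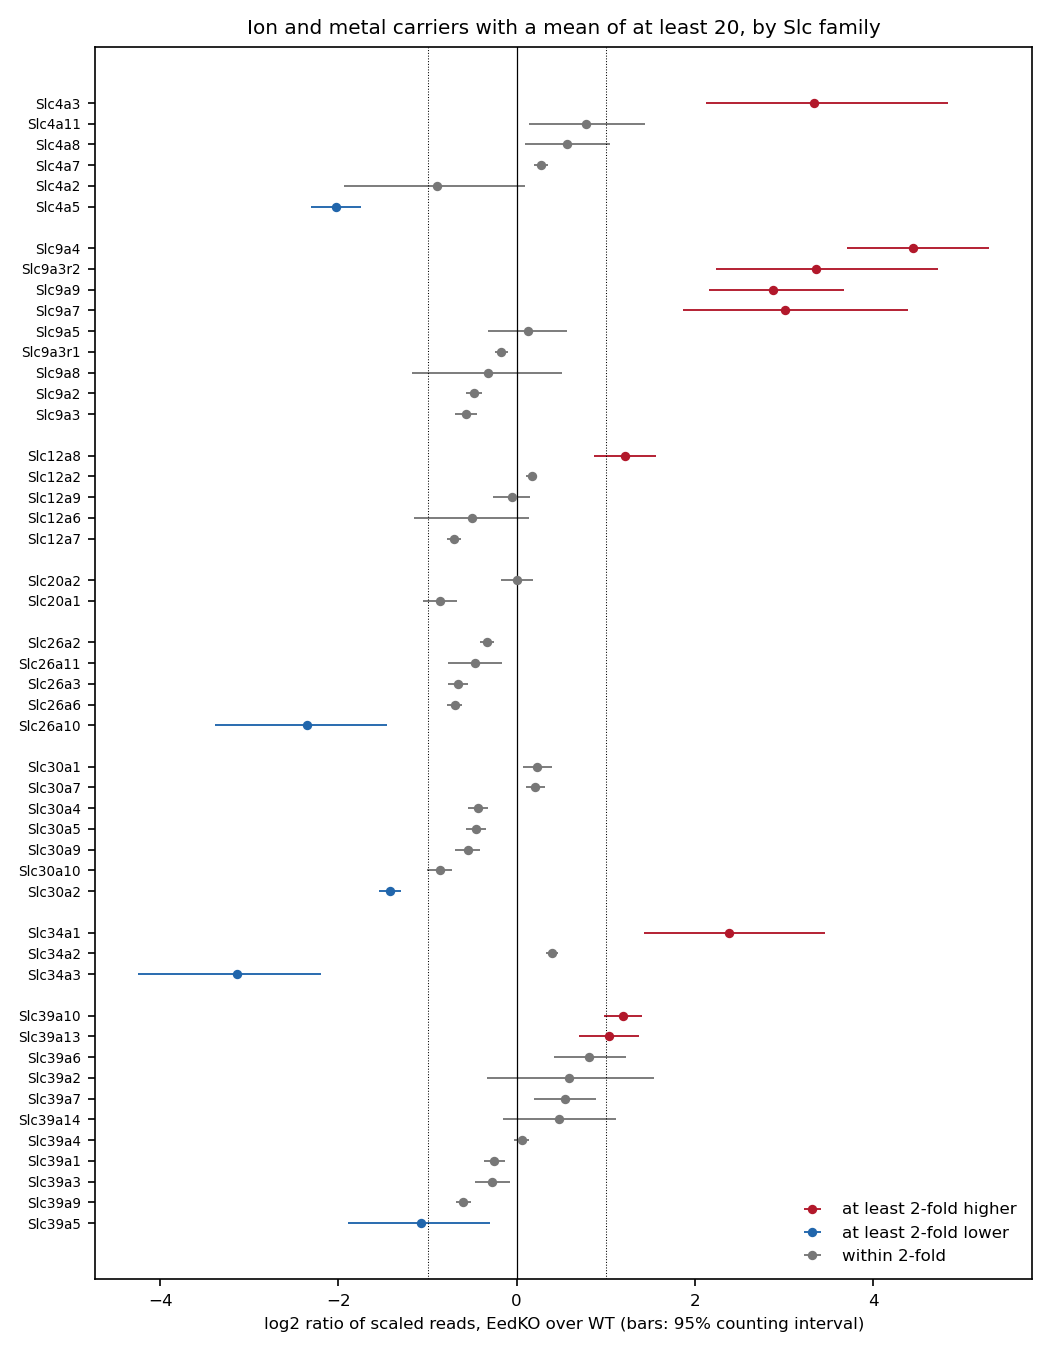
Log2 ratio of scaled reads, EedKO over WT, for 48 of the 50 carriers with a mean of at least 20, grouped by Slc family. Points are single ratios, bars are 95% counting intervals, and dotted lines mark 2-fold. The 4 higher points of family 9 stand to the right of its other members, and all 5 points of family 26 lie left of zero.

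Several lists of markers of other cells were higher in the EedKO library. Counts of calls in these lists stand beside 11.2% higher and 3.58% lower among all genes past the filter. The exocrine pancreas list had 9 of 10 genes past the filter higher. All 9 but Cela1 had a WT value under 20 and passed the filter only through EedKO, so nothing is read from that count. The summed scaled reads of the list were 2425 in EedKO and 465 in WT, with Ctrc at 0 in WT. Fibroblast and smooth muscle markers summed to 522 in EedKO and 14.7 in WT. Pdgfra was at 0 in EedKO, and Col1a2, Dcn and Lum at 0 in WT. Only Col1a1, Col1a2 and Col3a1 passed the filter, 3 of 3 higher, and no smooth muscle gene of the list did. All 3 passed only through EedKO, so nothing is read from that count. Endothelial markers summed to 154 in EedKO and 47.0 in WT, and leukocyte markers to 395 in EedKO and 253 in WT. Among leukocyte genes the macrophage markers Csf1r, C1qa and C1qb were higher, while the T cell genes Cd3e and Cd3g had 79 and 84 reads in EedKO and 82 and 112 in WT. Of 3 enteric neuron and glia markers past the filter none was called, and the list summed to 114 in EedKO and 86.2 in WT. Of 3 colon markers 2 were higher, and the list summed to 1485 in EedKO and 362 in WT. Of these Hoxb13, at 803 reads in EedKO and 0 in WT, passed the filter only through EedKO. Within the epithelium, enterocyte markers summed to 40231 in EedKO and 49582 in WT and proliferation markers to 8091 in EedKO and 11637 in WT, while goblet markers summed to 34960 in EedKO and 30204 in WT. Tuft cell markers summed to 1309 in EedKO and 2038 in WT, with 1 higher and 2 lower of 6. Called segment markers did not agree in direction: Cybrd1 of the duodenum and Slc10a2 of the ileum were higher, and Cyp2b10 and Cubn lower. Both segment lists summed lower in EedKO. Duodenum and jejunum markers summed to 5120 in EedKO and 7356 in WT, and ileum markers to 9948 in EedKO and 16161 in WT. The part of these cell types and segments in the carrier ratios was not tested.

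The sodium/proton exchangers of family 9 held the carrier with the highest ratio, Slc9a4. Slc9a4 (NM_177084), an exchanger best known from the basolateral membrane of stomach parietal cells, had 315 reads in the EedKO library and 15 in the WT library. It was 21.9-fold higher (13.1 to 39.6), and the authors' deposited table gives it an adjusted p of 0.000388. The level of Slc9a4 was 81.2 reads per kilobase in EedKO and 3.71 in WT. Its neighbour in the genome is Slc9a2, an apical exchanger of intestinal epithelium, which had 1679 EedKO reads and 2438 WT reads. Slc9a2 was thus 1.39-fold lower (1.31 to 1.48) next to the carrier with the highest ratio.

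Both endosomal exchangers among the higher carriers were low in the WT library. Slc9a9, of recycling endosomes, had 127 reads in EedKO and 18 in WT, a ratio of 7.35 (4.47 to 12.8). For Slc9a7, of the trans-Golgi network, the counts were 54 in EedKO and 7 in WT, a ratio of 8.04 (3.65 to 20.9). The Slc9a7 gene model overlaps Chst7, a sulfotransferase gene with 69 EedKO reads and 0 WT reads. Whether counting used strand is not stated, so reads of the pair cannot be told apart. Slc9a8 had 23 reads in EedKO and 30 in WT, Slc9a5 had 90 in EedKO and 86 in WT, and the intervals of both ratios include 1.

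Scaffolds of the apical exchanger differed from each other. Slc9a3r2 (NHERF2), which tethers Slc9a3 to its regulators, had 69 reads in EedKO and 7 in WT, a ratio of 10.3 (4.73 to 26.5). Slc9a3r1 (NHERF1) was the carrier-list gene with the highest level in both libraries, at 1484 reads per kilobase in EedKO and 1674 in WT. Its ratio of 0.887 (0.843 to 0.933) turned to just above 1 with scaling to library totals. Even in EedKO, Slc9a3r2 stood at 33.0 reads per kilobase, far under Slc9a3r1. The exchanger they anchor, Slc9a3, had 879 EedKO reads and 1356 WT reads, 1.48-fold lower (1.36 to 1.61). So 4 of 11 family members past the filter, scaffolds included, were higher and none lower, beside 11.2% and 3.58% of all genes. Below 0 lay 6 of the 11, beside 59.8% of all genes. All 4 higher members had a WT value under 20 and passed the filter only through EedKO, so nothing is read from that count.

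A separate list held other NHERF partners and regulators of the brush border exchanger. Of its 9 tested genes 1 was lower and none higher, beside 3.58% and 11.2% of all genes. That gene was Prkg2, the cyclic GMP kinase that inhibits Slc9a3, with 1077 EedKO reads and 2403 WT reads, 2.14-fold lower (1.99 to 2.30). Its log2 ratio was -0.92 under library totals, which ends the call. Over the 9 genes the log2 ratio had a median of -0.25.

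**Figure D2:**
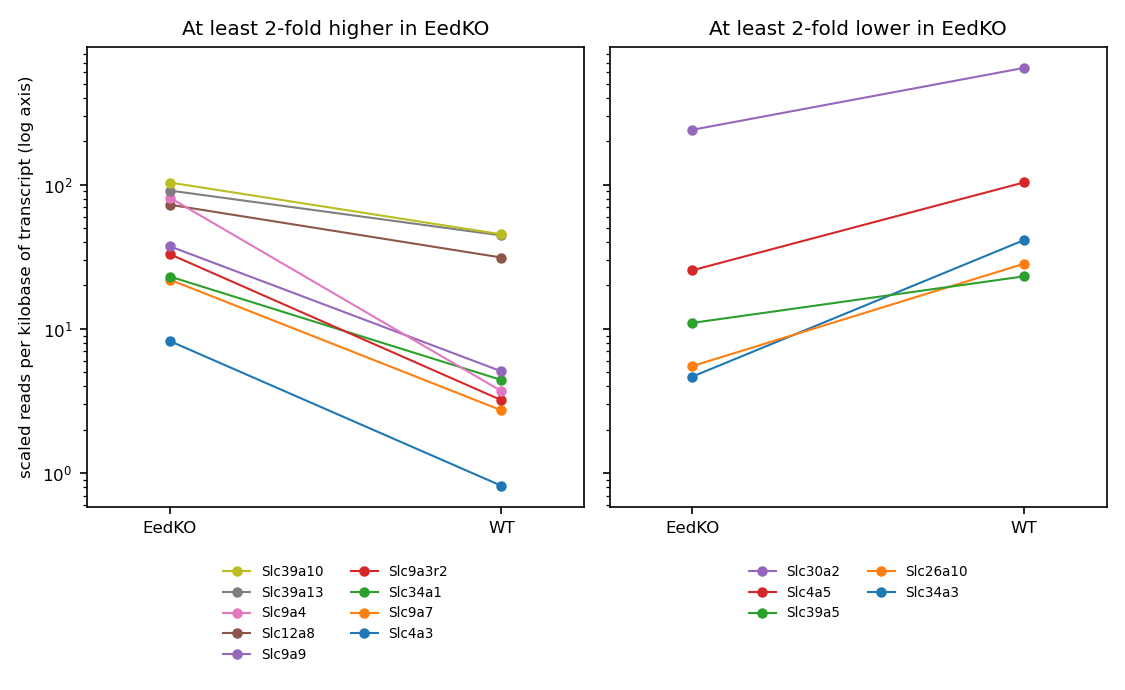
Levels of the 14 carriers called higher (left) or lower (right), in scaled reads per kilobase on a log axis, with the EedKO library left of the WT library and 1 line per gene. All 9 higher carriers stood at no more than 45.3 reads per kilobase in WT, whereas the lower carriers include Slc30a2 at 644.

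Anion exchangers of family 26 past the filter, 5 of 5, lay below 0 on the log2 scale, as 59.8% of all genes past the filter also did. At means of 1000 or more, where Slc26a2, Slc26a3 and Slc26a6 stood, 82.0% of all genes were below 0. The family had a median of -0.66 and 1 lower call, beside 3.58% of all genes. Slc26a6, an apical chloride, bicarbonate and oxalate exchanger, had the highest level of the family and 1759 EedKO reads against 2967 WT reads, 1.62-fold lower (1.53 to 1.72). Slc26a3, the brush border chloride/bicarbonate exchanger mutated in human congenital chloride diarrhoea, had 1077 EedKO reads and 1770 WT reads, 1.58-fold lower (1.46 to 1.70). The sulfate carrier Slc26a2 had 2375 reads in EedKO and 3111 in WT, 1.26-fold lower (1.19 to 1.33). The called member, Slc26a10, had 12 EedKO reads and 64 WT reads, 5.12-fold lower (2.74 to 10.4). It passed the filter only through WT. Its gene model overlaps B4galnt1, which has no row, so those reads are uncertain. Slc26a11, a further anion carrier, had 156 reads in EedKO and 224 in WT, and its model overlaps Sgsh, with 288 in EedKO and 236 in WT. Slc26a9, a chloride channel of stomach and airway, had 7 reads in each library, and Slc26a4, the pendrin gene, had 21 in EedKO and 11 in WT.

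Bicarbonate carriers of family 4 held 1 higher and 1 lower of 6 past the filter, beside 11.2% and 3.58% of all genes. Slc4a5, a sodium bicarbonate cotransporter, had 128 EedKO reads and 542 WT reads, 4.06-fold lower (3.35 to 4.97), an adjusted p of 0.190 in the authors' deposited table. Slc4a3, an anion exchanger best known from brain and heart, had 58 EedKO reads and 6 WT reads, 10.1-fold higher (4.36 to 28.6). It passed the filter only through EedKO. Of the coding genes on either side of Slc4a3, Epha4 was also higher, with 340 reads in EedKO and 56 in WT, and Stk11ip was within 2-fold, with 443 in EedKO and 430 in WT. Slc4a7, an electroneutral sodium bicarbonate cotransporter, had the highest level of the family and differed little, at 2814 EedKO reads and 2419 WT reads, a ratio of 1.21 (1.15 to 1.28). For Slc4a2, the widespread basolateral anion exchanger, just 14 EedKO reads and 27 WT reads were counted over its main row, and the interval of its ratio, 0.262 to 1.07, includes 1. It is 1 of the carriers with several rows, which may be undercounted. Slc4a8 and Slc4a11 had 91 and 56 reads in EedKO and 64 and 34 in WT.

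Carbonic anhydrases, which supply these exchangers with bicarbonate, were taken from a separate list: 4 of 9 past the filter were higher and none lower, beside 11.2% and 3.58% of all genes. Car8 and Car12 had 1041 and 891 reads in EedKO against 522 and 420 in WT. The other higher members were Car5b, with 53 EedKO reads and 15 WT reads, and Car11, with 39 EedKO reads and 1 WT read, and both passed the filter only through EedKO. Car8 and Car11 are related proteins that lack catalytic activity. The cytosolic Car2 had 630 EedKO reads and 515 WT reads, while the brush border enzyme Car4 had 376 in EedKO and 660 in WT. Of 8 anion and sodium channel genes past the filter, 1 was higher, beside the same 11.2% of all genes. It was Scnn1a, a subunit of the epithelial sodium channel, with 980 EedKO reads and 362 WT reads, 2.82-fold (2.50 to 3.19). Cftr, the apical chloride channel of crypt cells, had 1533 EedKO reads and 2421 WT reads, a ratio of 0.660 (0.619 to 0.704).

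Cation-chloride cotransporters of family 12 were largely within 2-fold. Slc12a2 (NKCC1), which loads crypt cells with chloride, had 4359 reads in EedKO and 4032 in WT, a ratio of 1.13 (1.08 to 1.18). The potassium-chloride cotransporter Slc12a7 (KCC4) had 2025 EedKO reads and 3439 WT reads, 1.63-fold lower (1.54 to 1.72). Thus the inward carrier stood slightly higher and the outward carrier lower, both short of 2-fold. Slc12a8, an orphan member for which nicotinamide mononucleotide transport has been reported, was the called one. It had 225 reads in EedKO and 101 in WT, which makes it 2.32-fold higher (1.83 to 2.97). Its other transcript row, with 30 EedKO reads and 14 WT reads, went the same way. WNK kinases control family 12 through partner kinases, adaptors and ubiquitin ligase subunits. Of 8 such genes past the filter 1 was higher, beside 11.2% of all genes. It was Wnk4, with 997 reads in EedKO and 365 in WT, 2.85-fold (2.52 to 3.22). The sodium pump subunit Atp1b1 had 3373 EedKO reads and 3852 WT reads. Of 6 pump genes past the filter 1 was higher, again beside 11.2% of all genes. That was Fxyd3, with 345 EedKO reads and 139 WT reads.

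The 3 sodium phosphate cotransporters of family 34 went 3 ways, with 1 higher and 1 lower, beside 11.2% and 3.58% of all genes. Slc34a1 passed the filter only through EedKO and Slc34a3 only through WT, so nothing is read from these counts. Slc34a2 (NaPi-IIb), the intestinal brush border form, was the second most abundant carrier in EedKO per kilobase. It had 4080 EedKO reads and 3223 WT reads, a ratio of 1.32 (1.26 to 1.38). Slc34a1 (NaPi-IIa), the main form of the kidney proximal tubule, had 55 EedKO reads and 11 WT reads, 5.21-fold higher (2.70 to 11.0). Its gene model overlaps Pfn3, with 1 read in each library. Slc34a3 (NaPi-IIc), also known from kidney, had 10 reads in EedKO and 92 in WT, 8.83-fold lower (4.59 to 19.0). Per kilobase, Slc34a1 stood at 23.1 in EedKO and 4.43 in WT and Slc34a3 at 4.68 in EedKO and 41.3 in WT. Slc34a1 was thus the higher of the 2 kidney forms in EedKO and Slc34a3 in WT, both far under Slc34a2, at 997 in EedKO and 756 in WT. The family 20 carriers, which serve phosphate needs of most cells, differed from each other too: Slc20a1 had 337 EedKO reads and 636 WT reads, 1.81-fold lower (1.58 to 2.07), and Slc20a2 had 525 EedKO reads and 546 WT reads. On the list of other phosphate and sulfate genes, 1 of 7 past the filter was higher, beside 11.2% of all genes. It was the tissue-nonspecific alkaline phosphatase Alpl, at 255 EedKO reads and 2 WT reads, a ratio of 133 (36.4 to 1103). Alpl passed the filter only through EedKO.

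Promoters in CpG islands, stretches dense in CG dinucleotides, are where PRC2 is known to bind in mammals, so CG was counted in the 250 bases before the start site. RefSeq (GRCm38.p6) sequences were at hand for 52 members, and the window with most CG was used for each. Among carriers called higher, 8 had a window, with 1 to 37 CG and a median of 15.5. The 5 lower carriers had 2 to 20, with a median of 3, and the 24 within 2-fold had 1 to 40, with a median of 17.5. Over all genes the median was 6. Higher and lower carriers therefore overlapped in CG count, and those within 2-fold spanned both. Slc9a4 had no entry. RefSeq lists several starts for some genes, and in 9 of the 13 called carriers with a window, as in 17 of all 52, it shared a run of 20 bases with a GENCODE transcript of its own gene. Such windows are partly transcribed, and none of them is printed. Of the higher carriers whose windows shared no such run, those with most and fewest CG are given 5′ to 3′ on the gene's strand, with each CG in capitals. They come from chrX:20291828-20292077 (− strand) and chr13:55399398-55399647 (+ strand).
Slc9a7: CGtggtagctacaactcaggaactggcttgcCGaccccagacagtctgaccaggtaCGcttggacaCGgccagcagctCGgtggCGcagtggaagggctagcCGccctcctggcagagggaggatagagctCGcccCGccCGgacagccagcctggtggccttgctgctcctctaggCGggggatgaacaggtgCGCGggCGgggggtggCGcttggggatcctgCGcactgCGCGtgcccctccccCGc
Slc34a1: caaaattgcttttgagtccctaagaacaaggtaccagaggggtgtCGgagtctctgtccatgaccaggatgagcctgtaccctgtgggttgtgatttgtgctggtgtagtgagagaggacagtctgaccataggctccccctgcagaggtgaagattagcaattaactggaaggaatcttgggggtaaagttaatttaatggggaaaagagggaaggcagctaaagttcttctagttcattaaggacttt
The Slc9a7 window holds 19 CG, a count reached by 19.7% of all 32851 windows, and that of Slc34a1 holds 1. Both genes were called higher. The highest count of a called carrier, 37 in Slc39a10, was reached by 2.20% of windows.

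**Figure D3:**
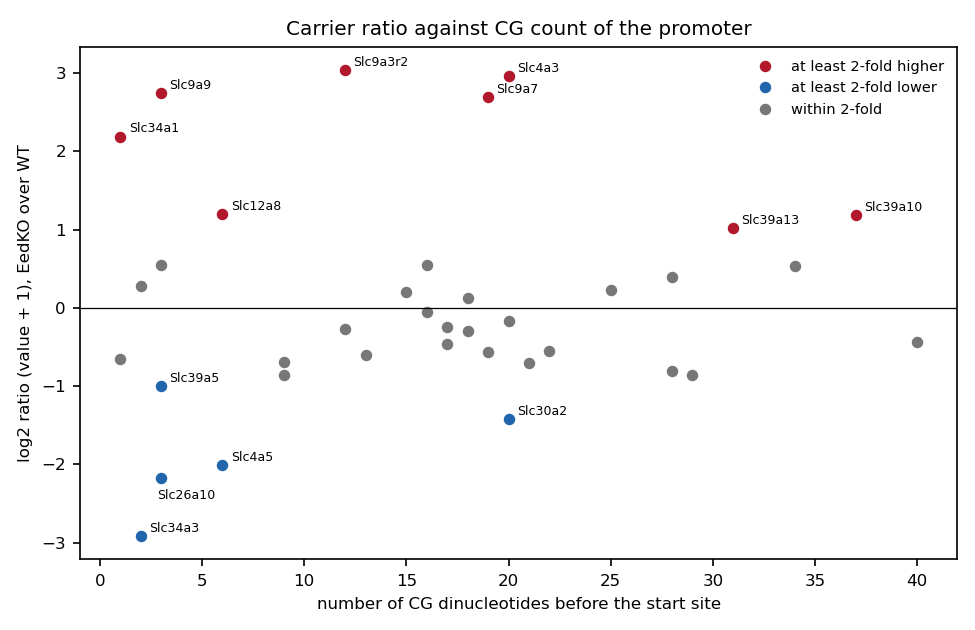
Log2 ratio of EedKO over WT against the number of CG dinucleotides in the promoter window, for carriers past the filter that had a sequence. Higher carriers run from 1 CG (Slc34a1) to 37 (Slc39a10), and the lower carrier with most CG is Slc30a2, with 20.

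Of the zinc exporters of family 30, 5 of 7 past the filter were below 0, beside 59.8% of all genes, with a median log2 ratio of -0.46. These 7 had means of 638 to 1449. Among all genes 61.6% were below 0 at means of 100 to 1000 and 82.0% at 1000 or more. Of the 7, 1 was called, as lower, beside 3.58% of all genes. Slc30a2 (ZnT2), a vesicular zinc carrier needed for the granules of Paneth cells, had 741 reads in EedKO and 2073 in WT, 2.68-fold lower (2.47 to 2.92). It was the only carrier with a mean of at least 1000 that passed 2-fold. On the Paneth marker list 3 of 10 genes were higher and 1 lower, beside 11.2% and 3.58% of all genes. The higher genes were Lyz2, Pla2g2a and Habp2, and the lower gene was Mptx2. Lyz1, Itln1, Ang4, Mmp7, Defa24 and Defa17 were within 2-fold. The summed scaled reads of the list were 8382 in EedKO and 6967 in WT. The part of Paneth cells in the Slc30a2 ratio was not tested. Slc30a10, a manganese exporter, had 682 EedKO reads and 1294 WT reads and was 1.82-fold lower (1.66 to 2.0). The secretory pathway carrier Slc30a5 had 1192 reads in EedKO and 1705 in WT, and Slc30a4, of endosomes and vesicles, 1207 in EedKO and 1699 in WT. By contrast Slc30a1, the plasma membrane exporter that protects cells from excess zinc, had 674 EedKO reads and 598 WT reads, a ratio of 1.17 (1.05 to 1.31). Slc30a7, of the Golgi, had 1514 reads in EedKO and 1365 in WT.

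Importers of family 39 held 2 higher and 1 lower of 11 past the filter, beside 11.2% and 3.58% of all genes, with a median log2 ratio of 0.46. Of the 11, 4 were below 0, and their means ran from 23.1 to 2341. Among all genes 39.7% were below 0 at means of 20 to 100, 61.6% at 100 to 1000 and 82.0% at 1000 or more. Over all members with a row, the family summed to 2055 reads per kilobase in EedKO and 2176 in WT. Slc39a10, a plasma membrane zinc importer, had 557 reads in EedKO and 254 in WT, a ratio of 2.29 (1.97 to 2.66). Slc39a13, a zinc carrier of the Golgi and vesicles whose loss affects connective tissue, had 220 EedKO reads and 112 WT reads, a ratio of 2.05 (1.62 to 2.59). Slc39a5, a basolateral zinc carrier, was at the threshold, with 21 EedKO reads and 46 WT reads over its main row, 2.10-fold lower (1.23 to 3.71), a call lost under each other scaling. Slc39a4, the apical importer through which dietary zinc enters, was the most abundant of the family per kilobase and alike in both libraries, at 2099 EedKO reads and 2104 WT reads, with a ratio of 1.04 (0.978 to 1.11). Slc39a9 had 1822 EedKO reads and 2878 WT reads, 1.52-fold lower (1.43 to 1.61), and Slc39a1, a plasma membrane importer, 1058 in EedKO and 1312 in WT. Slc39a7, which releases zinc from the endoplasmic reticulum, had 169 EedKO reads and 121 WT reads. The remaining zinc importers past the filter, Slc39a2, Slc39a3 and Slc39a6, had 26, 387 and 142 EedKO reads and 18, 487 and 84 WT reads. The manganese and zinc importers Slc39a14 and Slc39a8 were low, with 52 and 11 EedKO reads and 39 and 2 WT reads.

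Of 5 metallothionein and zinc sensing genes past the filter, 1 was higher and 1 lower, beside 11.2% and 3.58% of all genes. Mtf1, the zinc sensing transcription factor that drives metallothioneins and Slc30a1, had 713 reads in EedKO and 1501 in WT, 2.02-fold lower (1.85 to 2.21). That call was lost under each other scaling, with a log2 ratio of -0.84 under library totals. Mt1 and Mt2, its best known targets, had 384 and 212 reads in EedKO and 529 and 274 in WT, both within 2-fold. Mt3, a form known from brain, had 110 EedKO reads and 14 WT reads, 8.19-fold higher (4.68 to 15.5). It passed the filter only through EedKO. The core of the metal response element that Mtf1 binds was searched as TGCACNC and TGCGCNC on both strands of the promoter windows. These were found in 10.4% and 12.5% of all windows, and either in 21.4%. In the window with most CG per gene, 6 of 9 family 30 members and 2 of 11 in family 39 held either, beside 22.0% of all genes. Counting any window of a gene, these were 6 and 4, beside 23.8% of all genes. TGCGCNC itself holds a CG, and the family 30 windows with most CG had 9 to 40, against a median of 6 over all genes. The shares of all genes are thus not matched for CG, and nothing is read from the family counts. By call, 2 of 8 higher, 2 of 5 lower and 10 of 24 carriers within 2-fold held either. The windows of the exporter that Mtf1 is known to control and of the manganese exporter are shown with matches in capitals, from chr1:191906531-191906780 and chr1:185454598-185454847 (both + strand, GRCm38.p6).
Slc30a1: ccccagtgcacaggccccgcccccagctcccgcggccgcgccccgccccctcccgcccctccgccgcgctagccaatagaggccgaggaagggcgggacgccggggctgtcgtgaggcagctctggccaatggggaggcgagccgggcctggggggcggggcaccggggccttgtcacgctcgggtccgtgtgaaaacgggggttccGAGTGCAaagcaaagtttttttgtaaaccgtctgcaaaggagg
Slc30a10: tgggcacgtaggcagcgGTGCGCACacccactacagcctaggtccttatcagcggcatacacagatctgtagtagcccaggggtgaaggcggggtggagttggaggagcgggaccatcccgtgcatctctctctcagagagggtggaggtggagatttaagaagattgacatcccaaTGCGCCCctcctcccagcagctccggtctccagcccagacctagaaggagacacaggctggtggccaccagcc
Slc30a1 has 1 match and Slc30a10 has 3, of which a pair on opposite strands overlaps. Slc30a1 stood slightly higher in EedKO and Slc30a10 lower, as given above. A match describes the letters alone.

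Of 18 carriers with a mean of at least 1000, 13 (72.2%) were below 0 and 5 above, beside 82.0% below 0 among all 1991 genes at that level. The median log2 ratio was -0.44 for these carriers and -0.26 for all genes, and scaling to library totals adds 0.18 to both. None of the 18 was called higher, beside 1.26% of all genes at that level. The 5 above 0 were Slc34a2, Slc39a4, Slc12a2, Slc4a7 and Slc30a7. At means of 20 to 100, 5 of 16 carriers were higher and 3 lower, beside 26.8% and 5.17% of all genes at that level. All 5 higher carriers had a WT value under 20 and passed the filter only through EedKO. Of the 3 lower, Slc26a10 and Slc34a3 had an EedKO value under 20 and passed only through WT. Nothing is read from either count. All 9 higher carriers had means under 1000.

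**Figure D4:**
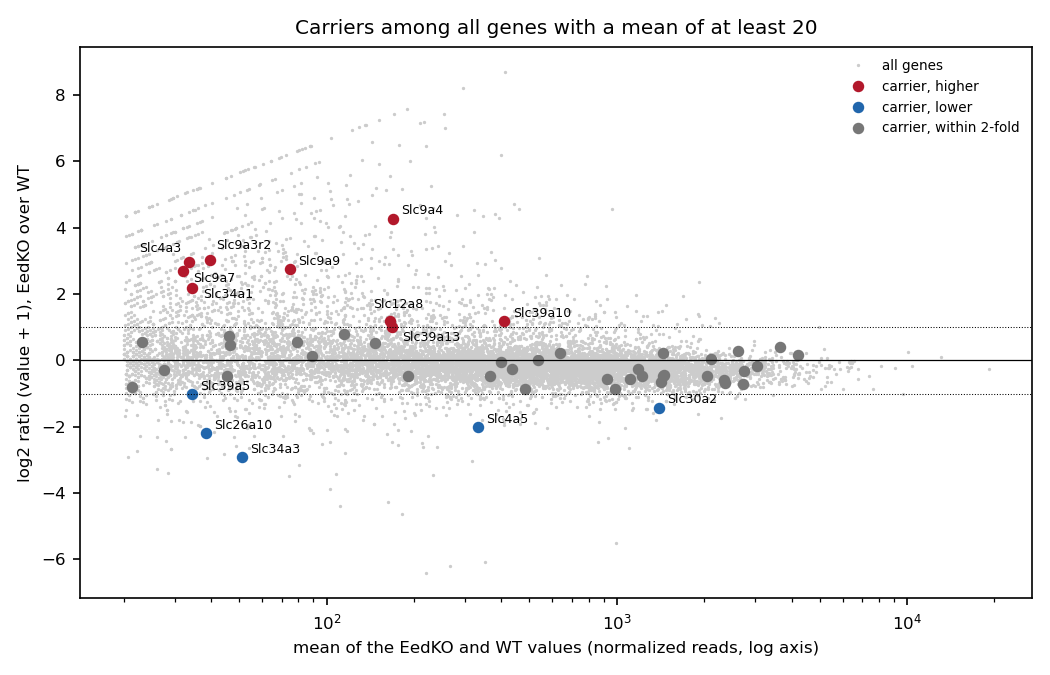
Log2 ratio (value + 1, EedKO over WT) against the mean of both values on a log axis, for all 10879 genes past the filter (small grey points) and for the carriers (large points). Called carriers are named, and no carrier above a mean of 1000 lies over the upper dotted 2-fold line.

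**Figure D5:**
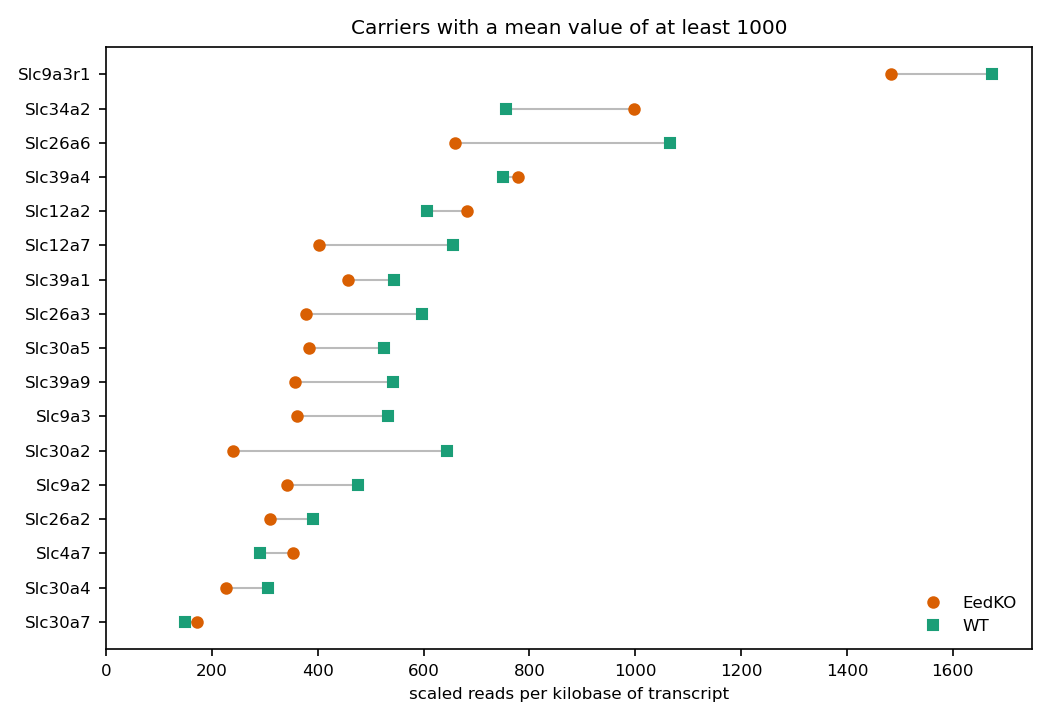
Scaled reads per kilobase in EedKO (circles) and WT (squares) for 17 of the 18 carriers with a mean of at least 1000, in order of level. The EedKO circle lies left of the WT square in 12 genes and right of it in Slc34a2, Slc39a4, Slc12a2, Slc4a7 and Slc30a7.

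Sodium/calcium exchangers of families 8 and 24 were near absent. None of the 6 with a row passed the filter, and their counts ran up to 10 reads in a library. Slc24a3 had 9 EedKO reads and 1 WT read, and Slc8a1 had 3 in EedKO and 0 in WT. Of the other carriers short of the minimum, Slc30a3, a vesicular zinc carrier of neurons, had 20 EedKO reads and 7 WT reads and Slc26a1, a sulfate carrier, had 8 in EedKO and 21 in WT, both past 2-fold. Slc39a8, Slc39a11 and Slc4a1 were past 2-fold too, with 11, 12 and 4 EedKO reads and 2, 5 and 1 WT reads. No read count among the 17 exceeded 21. Calcium, magnesium and copper transport genes from the other lists gave no call among 6, 9 and 7 past the filter. Among all genes 11.2% were called higher and 3.58% lower. The median log2 ratios of the 3 lists were -0.39, -0.28 and -0.16. Trpm6, the apical magnesium channel, came nearest, with 480 reads in EedKO and 268 in WT, a ratio of 1.87 (1.60 to 2.18).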

How the data were processed

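RNA was measured in 2 crypt libraries made with the TruSeq RNA kit from total RNA, per the labels' protocols. The submitters' processing notes name TopHat, DESeq and mm9, without versions, and no source states the counting tool or strand setting. The authors deposited 1 normalized signal per transcript row and library. The deposited table also holds the authors' own ratio (fold change), its log2 and p-values, per the file headers; of these only adjusted p-values are printed. All printed ratios and log2 ratios were computed here, ratios from recovered reads and log2 ratios from the deposited values + 1.

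Whole reads were recovered: 100% of values were whole multiples of their library's lowest value (tolerance 1e-06). No row was at 1 step in both libraries, as if the authors had added 1 read to every count; printed reads are steps minus 1. Symbols with several rows took the row with the highest mean. In the whole table such symbols had a median of 8.35 reads per kilobase, against 38.9 for symbols with 1 row, so the 8 carriers with several rows may be undercounted. Lengths came from GENCODE vM21 by accession (97.7% of rows). Promoters are RefSeq sequences of GRCm38.p6, another build than mm9, and neighbours and overlaps come from the same assembly.

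Intervals of ratios are exact (Clopper-Pearson, 95%), given each gene's summed reads. They cover counting error only, since PCR copies are not independent molecules. There is no test of genotype with 1 library per group. Named carriers were those called, the most abundant of each family per kilobase, those best known from intestine and any called by the authors; others are named as values. A few genes enter the counts but are not reported here by name. Members, lists and rules were chosen with earlier results of these data known. Functions were tested on simulated data. Alternatives were other pseudocounts, scalings, filters, thresholds, summed rows, 1 read taken off, and an exact binomial test on recovered reads. Work was done in Python 3.11.15 with SciPy 1.17.1 for intervals, pandas 2.3.3 and NumPy 2.4.6 for tables, and Matplotlib 3.10.9 for plots.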

Additional observations from a re-analysis of the deposited data

How the results depend on the processing

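The 9 higher and 5 lower carriers were counted again under each alternative. A mean of at least 50 left 5 higher and 3 lower (8.37% and 3.30% of all genes), and no filter gave 15 higher and 6 lower (16.4% and 4.22%). A 1.5-fold threshold gave 11 higher and 12 lower (16.9% and 13.1% of all genes), and a 3-fold threshold 6 higher and 3 lower (7.08% and 0.984%). Slc39a5 was no longer called under each other scaling, with its rows summed or with a pseudocount of 10, and Slc39a13 was lost with a pseudocount of 10. The exact binomial test between the libraries, with Benjamini-Hochberg adjustment at 0.05, called 18 carriers higher and 23 lower, against 22.6% and 37.1% of all genes (2464 and 4036); it counts small differences and compares 2 libraries, not the genotypes. The median log2 ratio of the carriers was -0.0355 with scaling to library totals, -0.0469 with scaling to the median of abundant genes, -0.0560 with a mean of at least 10, 0.0547 with no filter and 0.12 for the mean in place of the median. The cause was not tested, except that a constant scaling shifts each ratio alike. The scaling of pathway genes and the count of motifs over any window were chosen after seeing the data; of 11 called pathway genes, Mtf1 and Prkg2 lost their call under library totals and the median of abundant genes, and Mtf1 also under TMM. No called carrier changed sign; Slc9a3r1, which was not called, did so with scaling to library totals. No paired analysis was possible because each group has 1 library. Depth limits carriers with few reads, whose intervals are wide.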
